A study of Rattus norvegicus with 6 samples.

Results

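The proteasome is the large protease that degrades ubiquitin-tagged proteins, and the genes for its subunits were followed in primary rat brain microvascular endothelial cells (rBMECs) exposed to homocysteine (Hcy). Members were the rows of the deposited gene count table whose gene name begins with Psma, Psmb, Psmc, Psmd, Psme, Psmf or Psmg and a digit, leaving out the inducible subunits Psmb8, Psmb9 and Psmb10. The rule used names alone and found 47 of the 33566 rows. Of the 47, 45 held at least 10 counts over the 6 libraries and were tested. The testis subunit Psma8 had 0 counts in every library, and the thymus subunit Psmb11 had 3 counts in Veh replicate 3, 1 in Hcy replicate 3 and 0 in the others. Psmc3ip, a factor of meiotic recombination, and Psme3ip1, a protein that binds Psme3, matched by name only, which leaves 43 tested subunits and cofactors.

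The cells were endothelial cells of cerebral microvessels from SD rats 18 to 22 days old, purified in culture and used after one passage. The libraries labelled Hcy came from cells given 100 µM Hcy for 24 h (3 libraries), and those labelled Veh from cells given the ddH2O in which Hcy was dissolved (3 libraries). The labels also mention a prepared Hcy solution of 50 µM, and the study's methods name that solution as the one used for treatment, so the dose is uncertain. The series calls the libraries biological replicates, but nothing says whether libraries with the same number share a cell isolation or how many animals each isolation used. No genetic change is stated for either group.

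Protein breakdown by this route needs several parts that have to be made together. The 20S core is a barrel of outer rings of alpha subunits and inner rings of beta subunits, and only the beta subunits Psmb5, Psmb6 and Psmb7 carry the protease sites. The 19S regulatory particle caps the barrel, with a ring of ATPases (Psmc genes) that unfolds the substrate and non-ATPase subunits (Psmd genes) that bind ubiquitin chains and remove them. Activators of the Psme family and the regulator Psmf1 bind the same ends of the core, and the Psmg chaperones help to build it. In many cells a shortage of proteasome activity raises these genes together through Nfe2l1, which binds antioxidant response elements as a partner of the small Maf proteins Mafg, Maff and Mafk.

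The promoters of 3 members are printed because the small Maf genes are among the genes that differed below. Each is the stretch of 250 bases before the start site used in a RefSeq table of build GRCr8, 5′ to 3′ on the gene's strand, with any match to the core letters of the antioxidant response element, TGACNNNGC on either strand, in capitals. Psmb5 (chr15:32047380-32047629, minus strand) and Psmb6 (chr10:55737638-55737887, plus strand) encode catalytic subunits and hold 1 match each, which begins 60 bases before the start in Psmb5 and 24 bases before it in Psmb6. Psmd5 (chr3:38548491-38548740, minus strand) is the member with the smallest p and holds no match.
Psmb5: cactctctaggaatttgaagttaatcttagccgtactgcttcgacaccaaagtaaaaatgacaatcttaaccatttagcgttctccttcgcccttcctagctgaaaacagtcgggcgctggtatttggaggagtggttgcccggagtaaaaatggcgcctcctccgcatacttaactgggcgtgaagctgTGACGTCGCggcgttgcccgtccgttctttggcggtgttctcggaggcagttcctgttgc
Psmb6: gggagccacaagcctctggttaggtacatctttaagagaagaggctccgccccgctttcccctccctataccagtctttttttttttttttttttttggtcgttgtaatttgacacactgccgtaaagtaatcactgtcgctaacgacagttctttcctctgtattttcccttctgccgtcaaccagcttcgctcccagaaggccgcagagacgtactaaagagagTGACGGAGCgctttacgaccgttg
Psmd5: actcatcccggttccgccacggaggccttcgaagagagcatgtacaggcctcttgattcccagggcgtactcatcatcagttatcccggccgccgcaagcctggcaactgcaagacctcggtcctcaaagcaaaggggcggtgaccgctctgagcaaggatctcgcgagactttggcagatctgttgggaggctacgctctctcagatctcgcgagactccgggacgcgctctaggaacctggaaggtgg
Of the 47 members, 42 were found in that table and 7 of them (16.7%) held a match, namely Psma3l (listed there as Psma3), Psmb2, Psmb5, Psmb6, Psmd1, Psmd9 and Psme4. Of all 33469 promoters of the same length, 10.1% held one. CCAAT, a motif common in promoters of constitutively expressed genes, was found on either strand in 21 of the 42 (50.0%) and in 34.0% of all promoters, and in 41 of all promoters it overlapped a match to the other motif. A match is a description of letters, and binding was not measured. The 7 members with TGACNNNGC had a median log2 fold change of -0.047 between Hcy and Veh, and the 34 tested members without it -0.061.

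Libraries held 14024997 to 16764584 counts, so that 3 counts correspond to 0.178 to 0.215 CPM (counts scaled to library size with TMM factors). Endothelial markers summed to 9435 to 9874 CPM in Hcy and 7870 to 9186 CPM in Veh, and these ranges did not overlap. Of 12 listed genes, 11 were above the floor of 3 counts in some library, and the tight junction gene Cldn5 was at 0 in all. The study shows its protein in rBMECs by Western blot, and why the Cldn5 row held no counts was not tested. Vwf (2858 to 3003 CPM in Hcy and 1976 to 2533 CPM in Veh), Kdr, Flt1 and Tie1 were higher in every Hcy library than in any Veh library. Tek, Slc2a1 and Slco1a4 were lower in every Hcy library than in any Veh library. Of all genes tested, 10.8% lay above and 9.27% below in this way. In the edgeR test described below, 0 endothelial markers were called higher and 0 lower at an adjusted p of at most 0.05. The shares of all genes tested were 1.32% and 1.01%. The part of the endothelial sum in the values given here was not tested. Pecam1 and Abcb1a, listed besides, were not matched by name in the table and were not analysed here. Astrocyte and microglia markers summed to at most 2.66 CPM in any library, with Aqp4, Slc1a2, Cx3cr1, P2ry12 and Ptprc at 0 throughout. Neuron markers summed to 5.22 to 9.77 CPM with Rbfox3, Snap25 and Map2 at 0, and oligodendrocyte markers to 10.6 to 12.2 CPM with Mag at 0. Pericyte and smooth muscle markers summed to 673 to 698 CPM in Hcy and 1103 to 1330 CPM in Veh. Of these genes, 9 of 9 were above the floor in some library, though not all of them in every library. In the same test 2 of them were called lower in Hcy, against 1.01% of all genes tested. Fibroblast markers summed to 35.7 to 57.8 CPM in Hcy and 57.5 to 83.9 CPM in Veh. The ranges of the pericyte and smooth muscle sum did not overlap between the groups, and its part in the values given here was not tested. That sum is carried by the contractile genes Tagln (572 to 590 CPM in Hcy and 976 to 1158 CPM in Veh) and Acta2 (90.7 to 103 and 123 to 166 CPM). The other 7 listed genes were each at most 3.63 CPM in any library, and of these Cspg4 and Rgs5 were higher in every Hcy library than in any Veh library. Kcnj8, also among them, was lower in every Hcy library (0.24 to 0.40 CPM) than in any Veh library (0.42 to 0.83 CPM). In such bulk samples, fewer cells of a type and less RNA per cell cannot be told apart.

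Veh replicate 3 stood apart from the other 5 libraries in the proteasome genes. It also held the lowest endothelial sum (7870 CPM) and the highest pericyte and smooth muscle (1330 CPM) and fibroblast sums (83.9 CPM) of the 6 libraries, and their part in its proteasome values was not tested. Summed over the 41 subunits and cofactors with a mean of at least 1 CPM, their level was 6850, 6486 and 6598 CPM in Hcy replicates 1, 2 and 3, and 6454, 6460 and 7906 CPM in Veh replicates 1, 2 and 3. Hence 5 libraries agreed closely and the sixth was higher. Of these 41 genes, 35 had their highest value in Veh replicate 3, where all 41 lay a median of 0.24 above their mean over the libraries on the log2 scale. Among all tested members the count was 36 of 45, against 25.6% of all genes tested. That share is higher among short genes, and of genes of at least 10 CPM it was 73.7% under 1000 bases, 59.6% in the class from 1000 bases and 44.7% in the class from 1500 bases to under 2000, where the members' counts were 7 of 8, 13 of 13 and 8 of 9. The shift was uneven across the complex. All 14 subunits of the 20S core were highest in that library and lay between 0.25 (Psma1) and 0.54 (Psma7) above the mean of Veh replicates 1 and 2, with a median of 0.42. The 17 structural subunits of the 19S particle lay between 0.024 (Psmd1) and 0.35 (Psmc1) above it, with a median of 0.27.

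**Figure D1:**
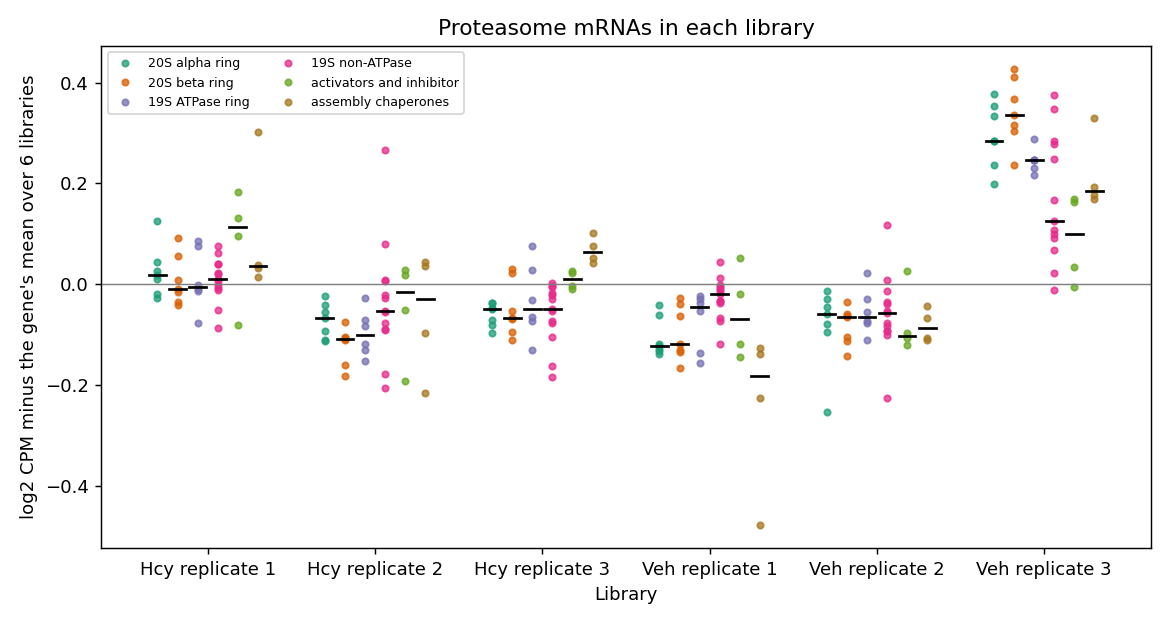
Each point is a gene of at least 1 CPM, placed by its log2 CPM in a library minus its mean log2 CPM over the 6 libraries, and the black bars are medians of each role. In Veh replicate 3 the medians of all 6 roles lie above 0, highest in the 20S beta ring at 0.33, and in the other 5 libraries those of the core and ATPase rings lie between -0.12 and 0.018 while those of the activators and chaperones are more spread.

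The activators did not share the order, with a median higher in Hcy replicate 1 (0.11) than in Veh replicate 3 (0.098). The shift of Veh replicate 3 moved with gene length. Among all genes of at least 10 CPM, those shorter than 1000 bases lay a median of 0.38 higher on the log2 scale in Veh replicate 3 than in the other Veh libraries, and those of 5000 bases and over a median of 0.27 lower (-0.27). The 20S core genes had a median length of 966 bases and the 19S structural genes of 1584 bases, so most of them fall on the short side. Across the 41 genes, Pearson's r between log2 length and the shift was -0.71, and across 8250 genes of at least 10 CPM it was -0.50. These are correlations over genes that share 3 libraries and are given as descriptions only. Psma3l and Psma4, alpha subunits listed with 3559 and 3909 bases, stood off the trend with shifts of 0.30 and 0.42, like the short alpha genes. The members as a group also lay above other genes of their length, with medians of 0.34 against 0.23 in the class from 1000 bases, 0.27 against 0.14 in the class from 1500 bases and 0.15 against 0.027 in the class from 2000 bases. The longest gene, Psme4 with 7130 bases, was the only one of the 41 with a shift below 0 (-0.045). The named members are therefore also given without Veh replicate 3. The labels give a minimum RNA integrity number of 7 for every library, and the study's methods name a higher one. The part of RNA quality in the shift was not tested.

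**Figure D2:**
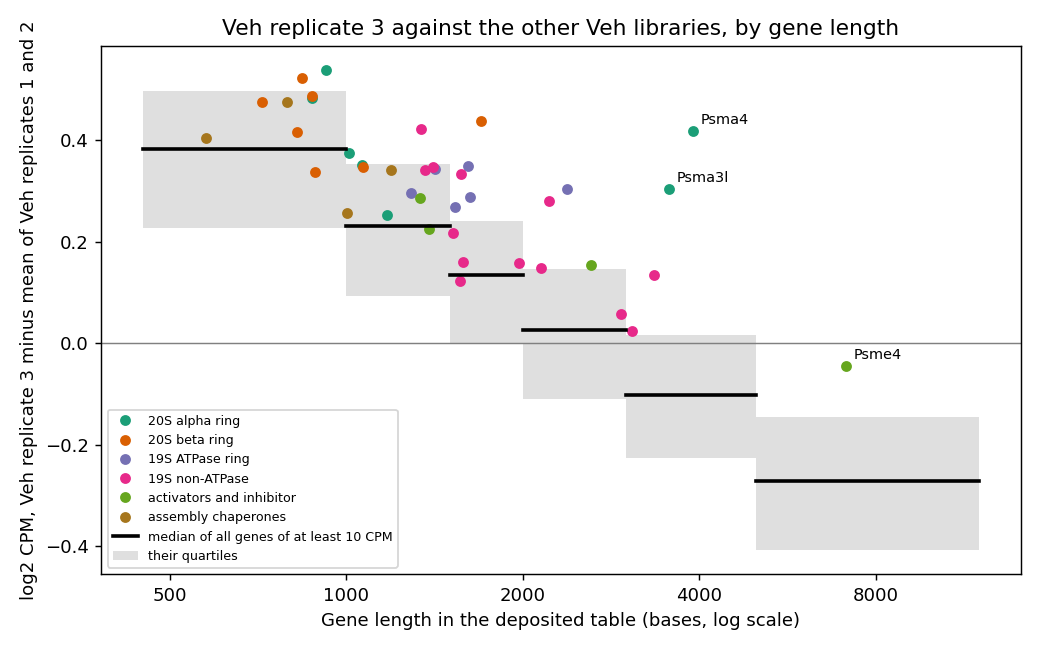
The x axis is gene length in bases on a log scale and the y axis is the log2 CPM of Veh replicate 3 minus the mean of Veh replicates 1 and 2. Points are the 41 proteasome genes, and the black lines and grey bands are medians and quartiles of all genes of at least 10 CPM by length class. Short genes lie high in both, and Psma4 and Psma3l lie well above the band for their length.

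To describe how much of each part of the complex these cells transcribe, levels were compared per kilobase of the gene length in the deposited table. Structural subunits of the core and cap were among the abundant mRNAs. The 31 of them ranged from 36.9 CPM per kb for Psmd14, the deubiquitinase that removes ubiquitin chains, to 381 CPM per kb for Psmb4, a non-catalytic beta subunit, with a median of 125. Psmb4 lay at the 98.4th percentile of all genes tested and Psmd14 at the 83.9th. Within the alpha ring, levels per kb ran from 41.9 (Psma4) to 239 (Psma6), a ratio of 5.70. Without division by length the alpha genes ran only from 113 CPM (Psma5) to 262 CPM (Psma3l), a ratio of 2.32, so the low place of Psma4 rests on its listed length. The beta ring ran from 89.5 (Psmb7) to 381 (Psmb4) CPM per kb. The ATPases ran from 60.5 (Psmc6) to 219 (Psmc3).

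Assembly chaperones among the members were less abundant than most of the subunits they help to place. Pomp, a maturation factor outside the name rule, was not compared per kb. The chaperones of the core, Psmg1 to Psmg4, and of the 19S base, Psmd5, Psmd9 and Psmd10, numbered 7 and had a median of 24.7 CPM per kb, from 1.37 (Psmd10) to 46.1 (Psmg1). None of the 7 exceeded 50 CPM per kb, a level chosen after the values were seen, and 29 of the 31 structural subunits did. Among the activators, Psme2 stood at 72.6, Psme3 at 26.4 and Psme4 at 19.9 CPM per kb, and Psmf1, the regulator of the core ends, at 32.0.

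**Figure D3:**
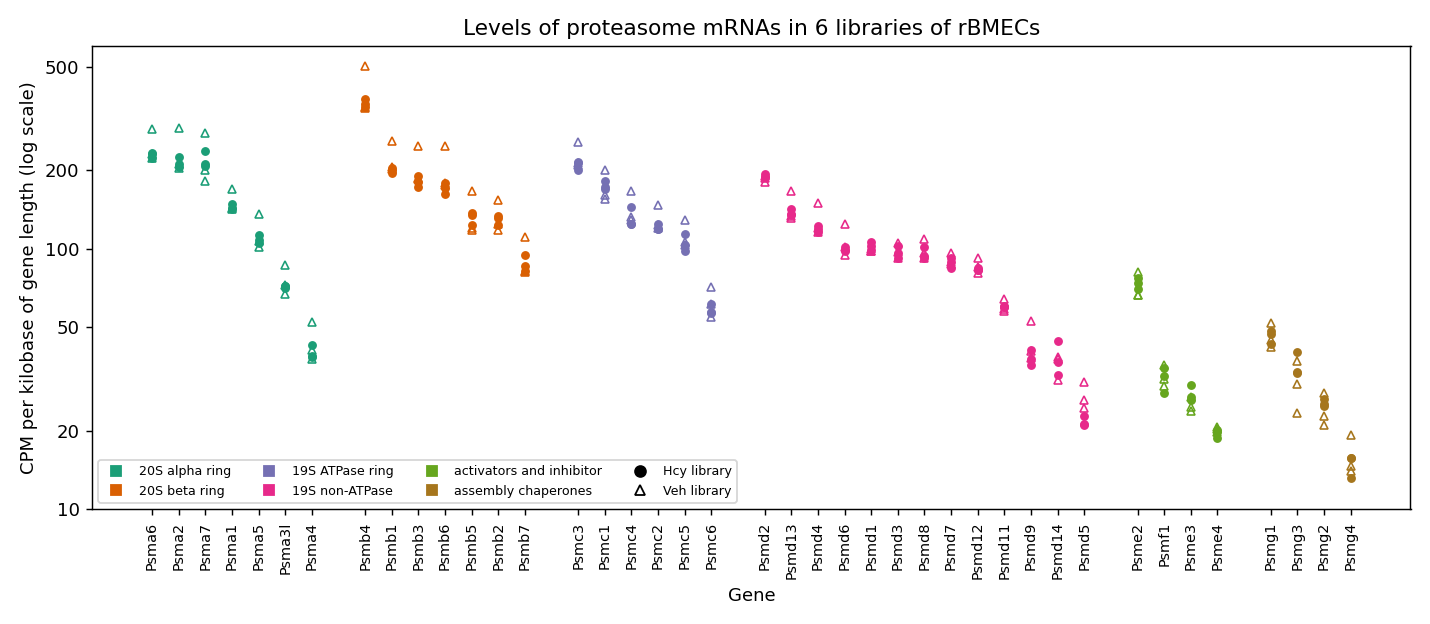
Levels per kilobase of listed gene length on a log axis, by gene within each role, with filled circles for Hcy libraries and open triangles for Veh libraries. Core and cap subunits lie mostly above 50 CPM per kb and the mean of each chaperone below it, and the topmost triangle of most genes is Veh replicate 3.

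To determine whether Hcy changed the expression of these genes, the 3 Hcy and 3 Veh libraries were compared gene by gene with the quasi-likelihood test of edgeR, and p-values were adjusted over the 14603 genes tested (Benjamini-Hochberg). No proteasome gene passed the test. Of the 45 members, 0 were higher and 0 were lower in Hcy at an adjusted p of at most 0.05, against 1.32% and 1.01% of all genes tested. With a log2 fold change of 1 or more in size added, the counts were 0 of 45 and 0.486%. DESeq2 called 0 of the 43 members to which it gave an adjusted p, against 5.09% of all such genes. At an unadjusted p of at most 0.05 edgeR called 2 of 45 (Psmd5 lower, Psmc3ip higher), against 13.4% of all genes. The median log2 fold change was -0.054 over the 45 members and -0.015 over all genes tested, with 33 members below 0 (73.3%) and 12 above, against 53.1% of all genes below 0.

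The intervals were narrow. For 41 of the 45 members, the 95% interval of the fold change lay within a factor of 1.5 in either direction, against 55.2% of all genes tested. Among members of at least 10 CPM the count was 40 of 41, near the 88.1% of all genes at that level. The exceptions were Psmg3, Psmc3ip and the scarce Psmd10 and Psme1. The SD over the 3 libraries had a median of 4.43% of the mean in Hcy and 13.9% in Veh over the 41 genes, and 36 of the 41 were more spread in Veh.

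**Figure D4:**
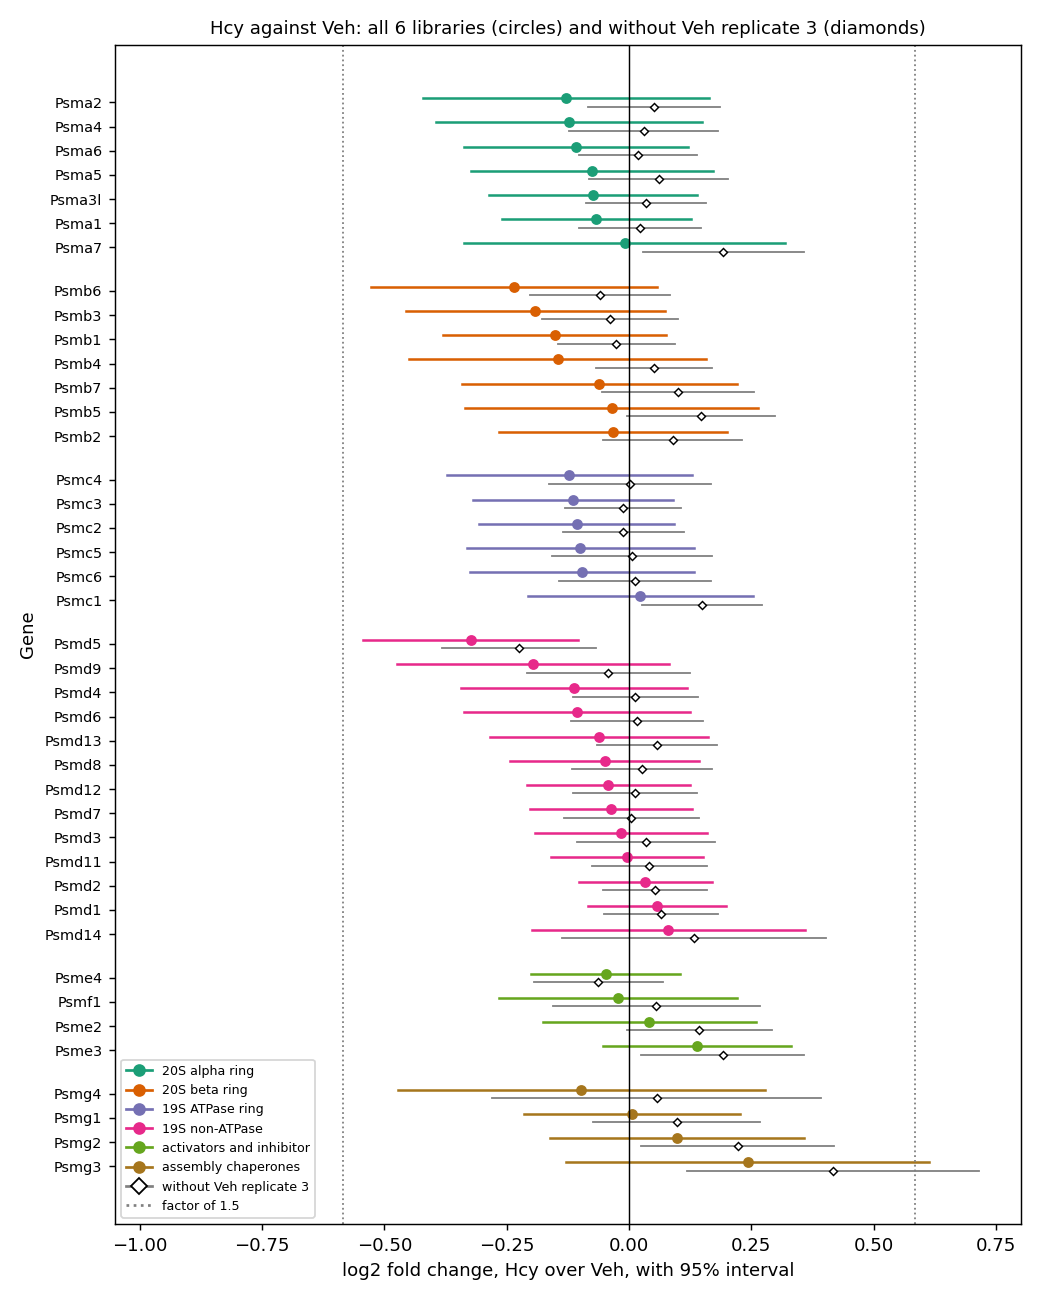
Log2 fold changes of Hcy over Veh with 95% intervals for the 41 proteasome genes of at least 1 CPM, in colour for all 6 libraries and as open diamonds without Veh replicate 3, with dotted lines at a factor of 1.5. Most circles lie left of 0 and most diamonds right of it, and the Psmd5 intervals lie below 0 in both.

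The slight downward lean turned over when Veh replicate 3 was left out. Of the 45 members, 26 changed sign, and the counts became 36 above and 9 below 0, with a median log2 fold change of 0.042 against -0.0031 over all genes. The median standard error of the members fell from 0.10 to 0.064. At an unadjusted p of at most 0.05, edgeR then called 7 of 45 members (Psmc1, Psma7, Psme3, Psmd5, Psmg2, Psmg3 and Psmc3ip), against 21% of all genes in that fit. Still no subunit or cofactor was called, and the single member called was Psmc3ip, which is no proteasome gene (1 of 45 higher and 0 of 45 lower, against 3.48% and 3.18% of all genes in that fit). A fit with an offset for gene length in each library, chosen after the data were seen, kept all 6 libraries. It gave a median of -0.041, with 30 members below 0 and 0 of 45 called, against 4.41% of all genes. At an unadjusted p of at most 0.05, edgeR called 5 of 45 in that fit (Psmb3, Psmb6, Psmd5, Psmg3 and Psmc3ip), against 16.4% of all genes.

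In the alpha ring, which forms the gate of the core, 7 of 7 tested genes lay below 0 with all libraries and 0 of 7 passed the test, with a median of -0.076. Psma2 measured 197, 180.2 and 186 CPM in Hcy replicates 1, 2 and 3, and 178, 185 and 253 CPM in Veh replicates 1, 2 and 3. Only Veh replicate 3 stood well above the rest. Its log2 fold change was -0.13 (SE 0.13, adjusted p = 0.747 by edgeR), and 0.051 without that library. Psma7 measured 219, 192 and 196 CPM in Hcy and 185, 169 and 257 CPM in Veh, where Veh held both the lowest and the highest library. The log2 fold change of Psma7 was -0.0088 (95% interval -0.34 to 0.32), and 0.19 without Veh replicate 3 (95% interval 0.03 to 0.36, adjusted p = 0.165 by edgeR). The other 5 alpha genes lay between -0.12 and -0.067.

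In the beta ring, 7 of 7 genes lay below 0 with all libraries, with a median of -0.15, and 0 of 7 passed the test. Psmb5, the subunit with chymotrypsin-like activity and the main target of proteasome inhibitor drugs, measured 120.3, 107 and 117 CPM in Hcy and 103, 105 and 146 CPM in Veh. The Hcy libraries lay above Veh replicates 1 and 2 and below Veh replicate 3. Its log2 fold change was -0.035 (SE 0.13, 95% interval -0.33 to 0.26, adjusted p = 0.951 by edgeR) and 0.15 without Veh replicate 3 (adjusted p = 0.252). Psmb6, the caspase-like subunit, measured 129, 116 and 122 CPM in Hcy and 126, 129 and 178 CPM in Veh. Its Hcy and Veh libraries overlapped, with the third Veh library again far above the rest. At -0.24 (SE 0.13, 95% interval -0.53 to 0.056, adjusted p = 0.497 by edgeR) it had the lowest value of the core genes, and without that library it stood at -0.059. With the offset for gene length, which keeps all 6 libraries, Psmb6 stood at -0.19 (95% interval -0.33 to -0.039, adjusted p = 0.179 by edgeR). Psmb7, the trypsin-like subunit, measured 161, 139.8 and 145 CPM in Hcy and 138, 139.5 and 188 CPM in Veh. The groups overlapped, and its log2 fold change of -0.061 (SE 0.12, adjusted p = 0.899) became 0.10 without Veh replicate 3. Psmb7 shares 17494 bases of the genome with Nek6 on the opposite strand, which held 3121 counts over the 6 libraries. Whether counting used strand is not given in the sources used here.

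The other beta subunits hold the ring together and carry no protease site. Psmb3 measured 157, 142 and 149 CPM in Hcy and 155, 153 and 205 CPM in Veh, for a log2 fold change of -0.19 (adjusted p = 0.547 by edgeR) and -0.039 without Veh replicate 3. Psmb1 measured 219, 209.5 and 215 CPM in Hcy and 221, 216 and 278 CPM in Veh, for -0.15 (adjusted p = 0.589) and -0.026. At the upper end of the ring, Psmb2 measured 116, 109 and 118 CPM in Hcy and 105, 110.0 and 136 CPM in Veh, for -0.032 (adjusted p = 0.938) and 0.089. In each of these 3 genes the groups overlapped, and Veh replicates 1 and 2 lay within or close to the range of the Hcy libraries.

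The ATPases of the 19S base, which thread substrates into the core, lay between -0.12 and 0.023, with 5 of 6 below 0 and 0 of 6 past the test. Psmc4 measured 205, 177 and 177 CPM in Hcy and 188, 183 and 236 CPM in Veh, and its value of -0.12 (adjusted p = 0.713 by edgeR) was 0.0018 without Veh replicate 3. Psmc3, the most abundant ATPase mRNA, measured 351, 326 and 347 CPM in Hcy and 341, 347 and 420.0 CPM in Veh. All its libraries except the third Veh library fell within a narrow range, and its log2 fold change of -0.11 (adjusted p = 0.667) became -0.012. Psmc2 measured 191, 183 and 182 CPM in Hcy and 189, 185 and 225 CPM in Veh, for -0.11 (adjusted p = 0.681) and -0.012. Psmc1 was the exception in sign, with 279.5, 274 and 295 CPM in Hcy and 251, 259 and 325 CPM in Veh, where the 3 Hcy libraries lay above Veh replicates 1 and 2. Its log2 fold change was 0.023 (adjusted p = 0.956) and 0.15 without Veh replicate 3 (95% interval 0.026 to 0.27, adjusted p = 0.154).

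Of the 14 Psmd genes, 10 lay below 0 and 0 passed the test. They comprise 11 structural subunits of the cap, of which 8 lay below 0, and the base chaperones Psmd5, Psmd9 and Psmd10. Psmd5, a chaperone that holds ATPases of the base during assembly and leaves before the particle is complete, came closest. It measured 50.3, 46.3 and 47.1 CPM in Hcy replicates 1, 2 and 3, and 53.9, 58.0 and 68.0 CPM in Veh replicates 1, 2 and 3. All 3 Hcy libraries lay below all 3 Veh libraries, and Psmd5 was the only member with that order (1 of 45, against 9.27% of all genes tested). Its log2 fold change was -0.32 (SE 0.097, 95% interval -0.54 to -0.10), with an unadjusted p of 0.00866 and an adjusted p of 0.157 by edgeR. Without Veh replicate 3 it was -0.22 (95% interval -0.38 to -0.067, adjusted p = 0.0981), and with the offset for gene length -0.33 (adjusted p = 0.0684). Psmd5 thus missed the threshold in each of these fits while its unadjusted interval lay below 0 in each.

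Psmd9, another chaperone of the base, measured 54.7, 48.2 and 50.7 CPM in Hcy and 54.3, 51.1 and 70.7 CPM in Veh. The groups overlapped, and its log2 fold change was -0.20 (adjusted p = 0.561 by edgeR) and -0.042 without Veh replicate 3. Psmd10, the remaining base chaperone, held 6, 16 and 12 counts in the Hcy libraries and 11, 14 and 8 in the Veh libraries. At this depth the 95% interval of its log2 fold change ran from -0.93 to 1.10, and a difference of the size seen in Psmd5 was not detectable. Psmd4, a receptor for ubiquitin chains, measured 172, 163 and 167 CPM in Hcy and 169, 163 and 211 CPM in Veh, for -0.11 (adjusted p = 0.711) and 0.012 without Veh replicate 3. Psmd14, the deubiquitinase, measured 58.4, 69.8 and 51.9 CPM in Hcy and 59.8, 49.6 and 60.8 CPM in Veh. Its Hcy libraries were the most spread of the 41 genes, with an SD of 15.1% of the mean, and its log2 fold change was 0.081 (95% interval -0.20 to 0.36) and 0.13 without Veh replicate 3. The large scaffold subunits Psmd1 and Psmd2 were the steadiest, with SEs of 0.063 and 0.060 and log2 fold changes of 0.057 and 0.034 (0.066 and 0.053 without Veh replicate 3).

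Of the 5 activator and Psmf1 genes, 3 lay above 0 and 0 passed the test. Psme3, the nuclear activator that works without ubiquitin, measured 78.3, 70.3 and 68.8 CPM in Hcy and 62.5, 64.5 and 70.7 CPM in Veh, for a log2 fold change of 0.14 (SE 0.085, adjusted p = 0.55 by edgeR) and 0.19 without Veh replicate 3 (adjusted p = 0.178), and 0.079 without Hcy replicate 1. Another gene model on the same strand covers nearly the whole of Psme3 and held 41 counts over the 6 libraries. Psme4, a large activator known from histone turnover, measured 134, 143 and 141 CPM in Hcy and 147, 144 and 141 CPM in Veh, for -0.047 (adjusted p = 0.836) and -0.062. In Psme4 all 6 libraries lay within a narrow range.

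Psme1 was barely counted, with 2, 4 and 5 counts in the Hcy libraries and 2, 1 and 0 in the Veh libraries. Its partner Psme2, with which it forms a mixed ring, stood at 103, 93.5 and 98.7 CPM in Hcy and 89.2, 89.1 and 109 CPM in Veh. The ratio of summed Psme1 counts per library size was 3.78, with a 95% counting interval of 0.999 to 21.1, and in CPM the groups did not overlap, although the first library of each held 2 counts (with Psmc3ip, 2 of 45 members had every Hcy library above every Veh library, against 10.8% of all genes). The log2 fold change of Psme1 was 1.79 (adjusted p = 0.468 by edgeR), and it was 1.31 without Veh replicate 3 and 2.59 without Veh replicate 1. Psme1 lies across Emc9 on the opposite strand, which held 232 counts, and a row listed with the same protein entry held 72 counts. Whether counting used strand is not given in the sources used here, so the level of Psme1 is uncertain.

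The core chaperones Psmg1 to Psmg4 had SEs of 0.097 (Psmg1) to 0.17 (Psmg4), and 0 of 4 passed the test. Psmg3 measured 31.7, 26.4 and 26.7 CPM in Hcy and 18.5, 23.9 and 29.4 CPM in Veh. Both groups were widely spread and overlapped, and its log2 fold change of 0.24 (95% interval -0.13 to 0.61, adjusted p = 0.599 by edgeR) was 0.42 without Veh replicate 3 (adjusted p = 0.104), 0.15 without Hcy replicate 1 and 0.086 without Veh replicate 1. Psmg4 measured 9.05, 7.59 and 9.07 CPM in Hcy and 8.07, 8.41 and 11.1 CPM in Veh, for -0.098 (adjusted p = 0.87) and 0.057. Psmg1 and Psmg2 stood at 0.0059 and 0.098, and at 0.097 and 0.22 without Veh replicate 3. Psmc3ip, matched by name only, measured 10.5, 9.13 and 8.42 CPM in Hcy and 5.52, 5.03 and 8.38 CPM in Veh, where every Hcy library lay above every Veh library by a small margin over Veh replicate 3. Its log2 fold change was 0.57 (SE 0.21, adjusted p = 0.258), and 0.82 without that library (adjusted p = 0.0168). Psmc3ip overlaps Mlx, on the opposite strand and with 3544 counts, by 37 bases.

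Genes that work with the proteasome were counted in 5 lists. Of 12 tested genes for other components and binding proteins, 0 were called in either direction. Pithd1, a proteasome-binding protein, measured 40.7, 37.5 and 38.9 CPM in Hcy and 28.0, 31.1 and 37.2 CPM in Veh (0.28, adjusted p = 0.304 by edgeR). Without Veh replicate 3 it stood at 0.40 (adjusted p = 0.0186 by edgeR) and was the 1 of 12 called, against 3.48% of all genes called higher in that fit. Pomp, the maturation factor of the core, measured 46.0, 39.2 and 15.8 CPM in Hcy and 32.4, 57.8 and 104 CPM in Veh. Pomp was the most scattered gene of the list, and its log2 fold change of -0.94 carried an SE of 0.45 (adjusted p = 0.413). It was -0.43 without Veh replicate 3 and -0.60 without Hcy replicate 3. The 3 inducible subunits that replace the catalytic ones in the immunoproteasome were present and 0 of 3 were called. Psmb10 measured 32.1, 32.8 and 31.3 CPM in Hcy and 22.6, 22.9 and 32.0 CPM in Veh (0.31, adjusted p = 0.365), with Veh replicate 3 within the Hcy range. Without that library Psmb10 stood at 0.50 (adjusted p = 0.00843 by edgeR) and was the 1 of 3 called. Psmb9 measured 36.5, 35.4 and 35.3 CPM in Hcy and 32.1, 29.9 and 36.6 CPM in Veh (0.12, adjusted p = 0.668), and its log2 fold change was 0.20 without Veh replicate 3 (adjusted p = 0.171) and 0.054 without Veh replicate 2.

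Of 12 shuttle and extraction factors, which bring ubiquitinated proteins to the proteasome, 0 were called. Ubqln2 measured 70.9, 73.0 and 73.1 CPM in Hcy and 67.6, 64.8 and 62.2 CPM in Veh (0.16, adjusted p = 0.388 by edgeR), with every Hcy library higher. Rad23b measured 326, 343 and 319.6 CPM in Hcy and 355, 369 and 344 CPM in Veh (-0.11, adjusted p = 0.528), with every Hcy library lower. Of 6 genes for ubiquitin and its activating enzymes, 0 were called. The polyubiquitin gene Ubb measured 530.3, 508 and 482 CPM in Hcy and 469, 409.5 and 454 CPM in Veh, so that every Hcy library lay above every Veh library (0.19, 95% interval 0.02 to 0.36, adjusted p = 0.305).

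Of the 13 regulators of proteasome genes, 2 fell and 0 rose, against 1.01% of all genes tested that were lower, and both were small Maf genes. Maff measured 496, 489 and 498 CPM in Hcy and 620.0, 619 and 643 CPM in Veh. Its groups lay well apart, with a log2 fold change of -0.34 (SE 0.059, adjusted p = 0.0209 by edgeR). Mafk measured 156, 159.9 and 165 CPM in Hcy and 216, 204 and 198 CPM in Veh, again without overlap, with a log2 fold change of -0.36 (SE 0.068, adjusted p = 0.0303). Over 15 alternative fits Maff lay between -0.35 and -0.32 and passed the threshold in 10, and Mafk lay between -0.39 and -0.32 and passed it in 9. Both missed the threshold whenever a library other than Veh replicate 3 was left out, with adjusted p of 0.0724 to 0.137 for Maff and 0.096 to 0.163 for Mafk by edgeR, and Mafk also with the replicate number as a block (adjusted p = 0.0709). Without Veh replicate 3, Maff stood at -0.32 (adjusted p = 0.0028 by edgeR) and Mafk at -0.39 (adjusted p = 0.00355). Mafg, the least abundant of the small Mafs, measured 15.7, 19.7 and 19.9 CPM in Hcy and 21.4, 20.8 and 14.7 CPM in Veh (-0.045, adjusted p = 0.948), and its value ran from -0.20 to 0.056 over the libraries left out.

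The factors with which the small Mafs pair did not pass the test. Nfe2l1 measured 199, 213 and 211 CPM in Hcy and 208, 209 and 164 CPM in Veh, with the third Veh library lowest (0.10, 95% interval -0.13 to 0.33, adjusted p = 0.749 by edgeR), and its log2 fold change was -0.0074 without that library. Nfe2l2, the regulator of antioxidant genes, measured 297, 286 and 310.4 CPM in Hcy and 290.4, 306 and 290.2 CPM in Veh (0.011, 95% interval -0.14 to 0.16, adjusted p = 0.966). The proteasome members whose promoters hold TGACNNNGC, Psmb5 and Psmb6 above among them, lay between -0.24 and 0.057.

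**Figure D5:**
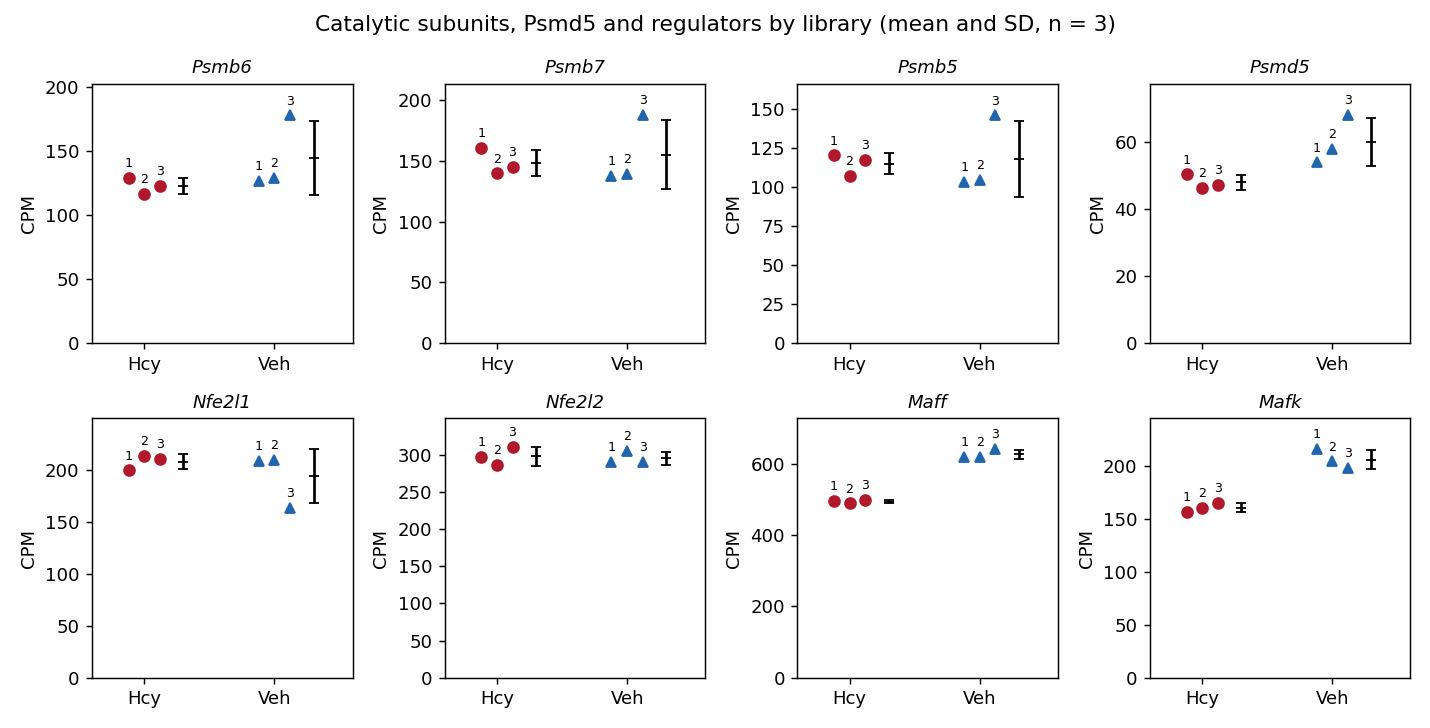
CPM of the catalytic subunits Psmb6, Psmb7 and Psmb5, of Psmd5 and of 4 regulators in each library, numbered by replicate, with the mean and SD of 3 libraries as bars. Maff and Mafk are lower in every Hcy library, Psmd5 is lower by a smaller margin, and the 3 catalytic subunits differ chiefly by Veh replicate 3.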

How the data were processed

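The authors deposited unnormalized read counts for each gene of 6 poly(A) libraries, with a gene length and positions. The submitters' processing notes name fastp, HISAT2 2.2.1, StringTie 2.2.3, Cufflinks, featureCounts 2.0.6 and DESeq2 1.42.0 and the build mRatBN7.2. The deposited positions reach beyond chromosome 1 of that build and are not printed. Whether counting used strand is not given in the sources used here. A deposited table of the authors' own comparison (fold changes and p-values) was not used. Rows without a gene name (683, with 0.786% of counts) were kept under their identifiers.

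Genes with at least 10 counts over the 6 libraries (14603) were tested with edgeR 4.0.16 in R 4.3.3, with TMM factors of 0.977 to 1.02 and condition as the only term, and p-values were adjusted over all genes tested by the Benjamini-Hochberg method. CPM values are TMM-scaled. Per-kilobase levels use the deposited gene length. The 95% intervals come from the same fit and are not adjusted for the number of genes. The tests and intervals were tested on simulated data. Short-read libraries without molecular identifiers were counted, so counting intervals cover counting error only, and p-values measure the spread between these libraries.

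The members, the gene lists, the named genes and the tests were chosen with earlier results of these data known. Values in every library were given for the catalytic subunits, for the 12 members with the smallest p, for the highest and lowest log2 fold change of each role among members of at least 1 CPM, and for the 2 smallest p of each list. Psma8, Psmb11, Psmd10, Psme2, Psmg1, Psmg2, Psmd1, Psmd2, Mafg, Nfe2l1 and Nfe2l2 were named besides after their values were seen. One gene that this rule names is not reported here. Samples with the same replicate number did not deviate together in every pair, which cannot decide whether they were paired. Replicate was no term of the main model and was fitted as an alternative.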

Additional observations from a re-analysis of the deposited data

How the results depend on the processing

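Processing alternatives for the proteasome genes were DESeq2, its size factors in edgeR, library totals alone, upper-quartile factors, a minimum of 1 count, filterByExpr, protein-coding genes only, the replicate block, unadjusted p, leaving out each library, and an offset for gene length chosen after the data were seen. The number of members called higher was 0 in every fit except without Veh replicate 3, for a range of 0 to 1 over the libraries left out, and 1 at an unadjusted p, where 1 was called lower. Over the libraries left out, the median log2 fold change of the members lay between -0.11 and 0.042, above 0 only without Veh replicate 3. The 22 members named by rule were each followed over the alternative fits, and a value here is 1 member in 1 fit. Of these values, 21 changed sign, 306 kept sign and side of the threshold, and 1 passed it (Psmc3ip without Veh replicate 3). All sign changes fell in the members listed next. Over the libraries left out, log2 fold changes ran from -0.12 to 0.15 for Psmb5, from -0.14 to 0.10 for Psmb7, from -0.19 to 0.012 for Psmd4, from -0.13 to 0.19 for Psma7, from -0.22 to 0.051 for Psma2, from -0.10 to 0.089 for Psmb2, from -0.045 to 0.15 for Psmc1, from -0.20 to 0.0018 for Psmc4, from -0.042 to 0.18 for Psmd14 and from -0.18 to 0.057 for Psmg4. With the offset for gene length, Psmb5 stood at 0.0092, Psmb2 at 0.0060 and Psma7 at 0.035, and with upper-quartile factors Psma7 stood at 0.0072. With the replicate block, Psma7 stood at 0.013, 0 members were called in either direction, the members' median was -0.049, and 298 of all genes were called against 341. Deviations of same-numbered libraries correlated at 0.00093 to 0.39 and those of others at -0.41 to 0.30. With 3 libraries per group these values cannot decide whether libraries were paired by number. The cause was not tested for any of these changes. Depth limits Psmd10, Psme1 and Psmb11, which held few counts.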

Other observations

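Some rows outside the name rule shared a protein entry with a member, and no sequences were compared. By the entry that the deposited table lists for each row, 17 rows shared an entry with a member, and 8 of them held counts. Those sharing the entries of Psma6 and Psmb6 held 353 and 195 counts over the 6 libraries, at most 1.59% of the counts of any member other than Psme1. The row sharing the Psme1 entry was the exception, with 21, 11 and 13 counts in the Hcy libraries and 9, 10 and 8 in the Veh libraries, 72 in all, against 14 counts for Psme1 itself. How the counting divided reads between such rows is not given in the sources used here.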
